A study of Sus scrofa with 4 samples.

Results

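Major histocompatibility complex (MHC) class II molecules carry peptides from the endosomes of a cell to its surface, where CD4+ T cells read them. The genes described here are the 10 members of this route that were taken from the count tables by symbol: the alpha and beta chains SLA-DRA, SLA-DRB1, SLA-DQA1 and SLA-DQB1, the peptide loading genes SLA-DMA and SLA-DMB, their partners SLA-DOA and SLA-DOB, the invariant chain CD74 and the transcriptional coactivator CIITA. All 10 were found, among 20648 genes in each table. SLA stands for swine leukocyte antigen, the MHC of the pig.

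A new class II molecule is held by CD74, which blocks its groove until endosomal proteases cut it down to a short peptide. DM then swaps this remnant for other peptides, and DO binds DM and restrains it. CIITA docks on the promoter complex of RFX, NF-Y and CREB factors and switches the class II genes on, constitutively in B cells and dendritic cells and after interferon gamma in many other cells. T cells of pigs, unlike those of mice, can carry class II, above all memory CD8+ T cells.

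The cells came from regenerated bone of Bama mini-pigs, a small pig breed, aged 8 months, and were measured with 10x Genomics 3′ single-cell libraries. There were 2 libraries of a group given a peptide named 1797 and 2 of a control peptide group, and the labels name no other agent and no allele. Type I collagenase released the cells and red cells were lysed, so the cells are those that withstood both steps. Nothing in the labels ties a library to an animal of its own, so a p-value here reflects how far these libraries differ, which can be technical. Each library held 12133 to 14496 barcodes and 87844389 to 98758412 unique molecular identifiers (UMIs, 1 per captured transcript), and 49137 cells were kept, with a median of 3145.5 to 5345 UMIs per cell by library. Any 2 libraries shared 42 to 63 barcodes, at most 0.45% of the smaller. Median mitochondrial shares were 2.82% to 4.18%, highest in 1797 library 1. Bone was checked by its markers: 719 cells were stromal-like or osteoblast-like and 2023 were osteoclast-like, beside many blood cells.

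Cells were grouped into 42 clusters without the class II genes, and clusters were named "like" a cell type from marker lists. This gave 18 classes, of which 14 had at least 20 cells in every library. Because the classes are clusters of the same cells, levels are compared between them as a description, with the number of libraries in which an order held and with no test. A level is in CPM, the share of a gene in the summed UMIs of a class in a library, scaled as counts per 1e6. In 3′ libraries each transcript gives its tag once, whatever its length, but capture can differ between genes, so ratios of genes are compared across classes and not read as molar ratios.

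In the Sscrofa11.1 build, RefSeq places 8 members in a row on chromosome 7: SLA-DRA at 24825037 to 24830650, SLA-DRB1 at 24901386 to 24914016, SLA-DQA1 at 24953472 to 24959313, SLA-DQB1 at 24969034 to 24977238, SLA-DOB at 25030435 to 25038196, SLA-DMB at 25119278 to 25125089, SLA-DMA at 25133494 to 25137928 and SLA-DOA at 25178866 to 25182665. CD74 lies on chromosome 2 at 151402210 to 151409924 and CIITA on chromosome 3 at 32171706 to 32230775, and all 10 are annotated as protein coding. The intervals span whole genes, exons and introns. LOC100153139, a neighbour in the DR beta region, lies between SLA-DRA and SLA-DRB1 at 24882212 to 24894226. It reached 512 ± 70.3 CPM in dendritic-cell-like and 347 ± 50.6 CPM in B-cell-like cells (SD, n = 4 libraries). How the authors' counting shared reads between it and SLA-DRB1 cannot be told from the counts, so the level of SLA-DRB1 is uncertain.

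SLA-DRA, the alpha chain of DR, was highest in dendritic-cell-like cells, with 6106 and 4221 CPM in the 1797 libraries and 4812 and 4379 CPM in the control libraries. The macrophage-like class followed with 3052 and 2801 CPM against 4226 and 1807 CPM. B-cell-like cells had 1358 and 1088 CPM against 1408 and 1238 CPM. These 3 classes kept this order in all 4 libraries, and the monocyte-like class came next in all 4, at 988 ± 267 CPM. SLA-DRB1, the DR beta chain, had the same leading order of means, with 2977 ± 595 CPM in dendritic-cell-like, 1968 ± 673 CPM in macrophage-like, 963 ± 87.0 CPM in B-cell-like and 630 ± 159 CPM in monocyte-like cells.

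The macrophage-osteoclast-like class, with the macrophage gene MSR1 and the osteoclast gene ATP6V0D2 among its leading genes, had 703 ± 208 CPM of SLA-DRA and the osteoclast-like class had 568 ± 98.3 CPM. These neighbours in the order did not differ beyond their spread, with 3 of 4 libraries in that order. In clusters made with the class II genes among the variable genes, the osteoclast-like level was 177 CPM, so it depends on which cells the class holds. The endothelial-like level had the smallest SD of the SLA-DRA levels, 7.62 CPM, at 439, 431, 421 and 435 CPM, below the osteoclast-like and above the cytotoxic-T-like level in 4 of 4 libraries. Endothelial cells line vessels and can be induced to carry class II.

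The remaining classes were set beside neutrophil-like cells, which should hold little class II. RNA free in the droplets was not measured. Neutrophil-like cells had 84.8 ± 41.3 CPM of SLA-DRA, stromal-like or osteoblast-like cells 54.7 ± 11.5 CPM and erythroid-like cells 129 ± 94.8 CPM. Cytotoxic-T-like cells, with CD8A, GZMH and CCL5 among the leading genes of their main cluster, had 194 and 124 CPM in the 1797 libraries and 172 and 181 CPM in the control libraries. All 4 of these values lay above the neutrophil-like value of the same library, and the mean was 1.98 times the neutrophil-like one. The T-cell-like class had 56.8 and 36.3 against 82.7 and 67 CPM, below the neutrophil-like value in 4 of 4 libraries. The class called NK-like or cytotoxic-T-like had 82.3 ± 17.7 CPM, and its order against neutrophil-like cells differed by library.

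**Figure D1:**
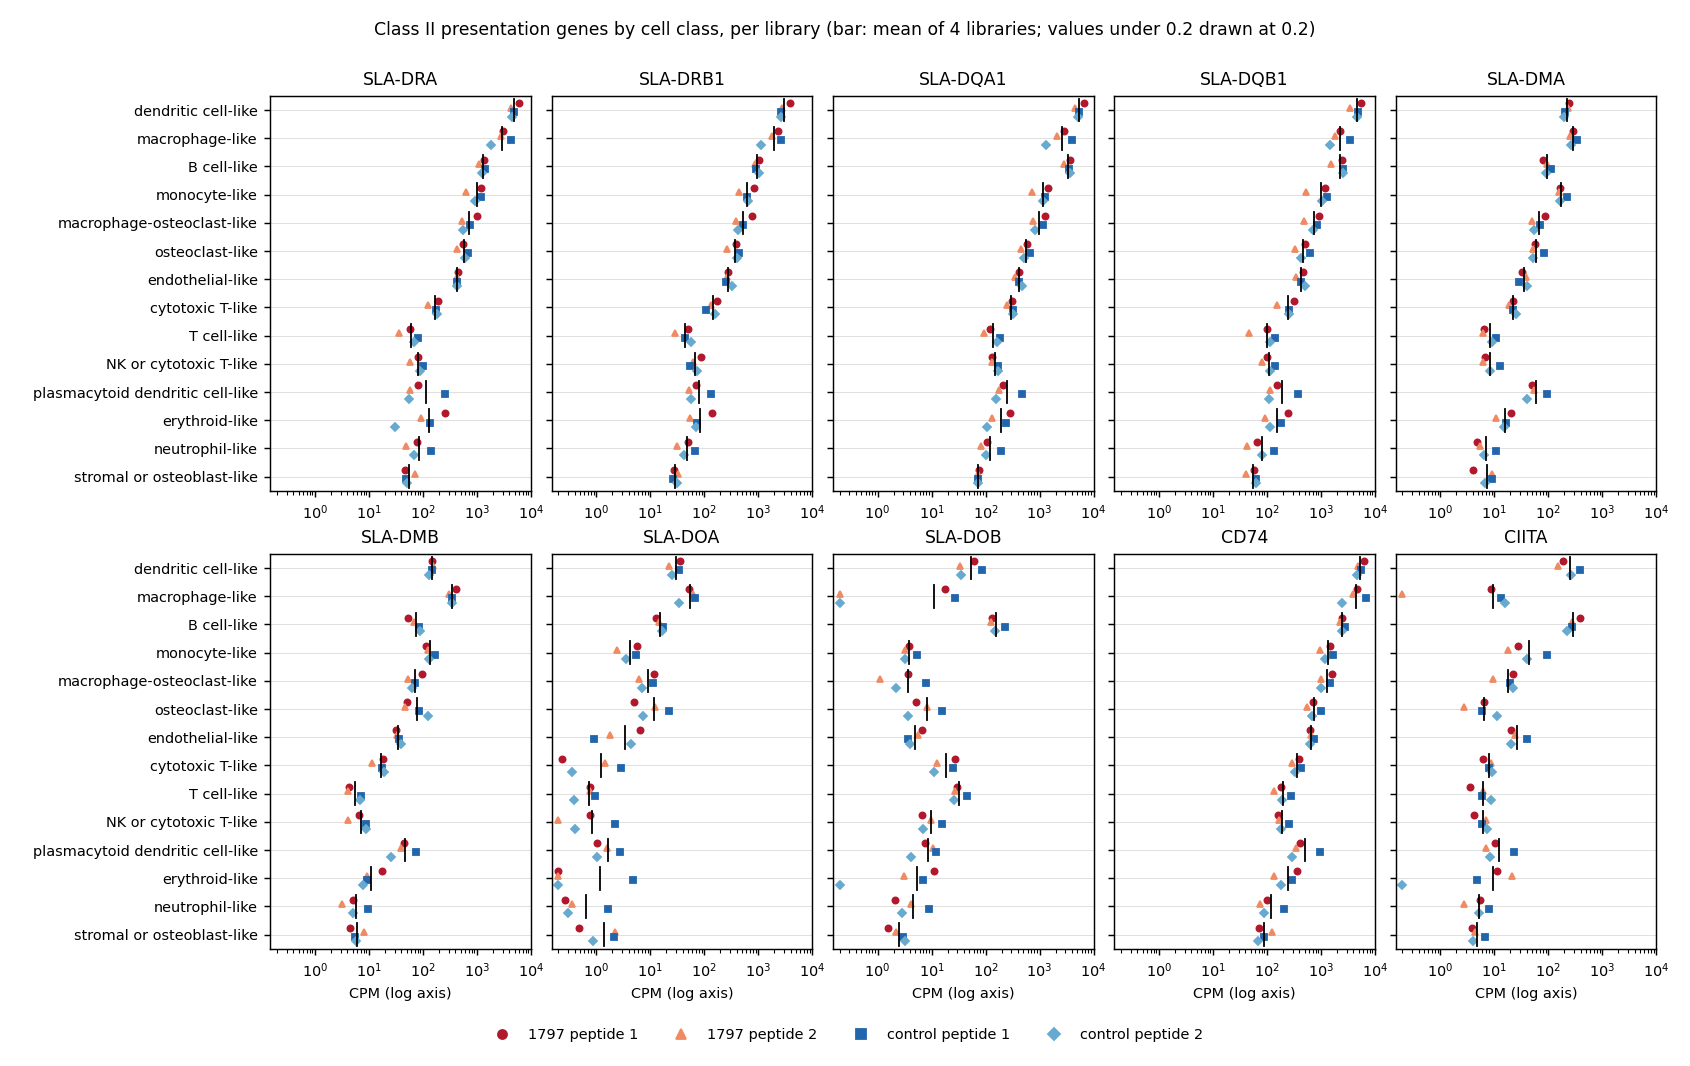
Level of each of the 10 members in CPM (x axis, log scale, values under 0.2 drawn at 0.2) in 14 cell classes (y axis), with 1 point per library and a bar at the mean of the 4 libraries. SLA-DRA, SLA-DRB1, SLA-DQA1, SLA-DQB1 and CD74 are highest in dendritic-cell-like cells, with SLA-DRA running from 4880 CPM there down to 54.7 CPM in stromal-like or osteoblast-like cells, while SLA-DOB and CIITA peak in B-cell-like cells.

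The cytotoxic-T-like level was as high without cells that held presenting-cell markers. Without the cells that had a UMI of MS4A1, CD79B, PAX5, FLT3, FCER1A, CD14, C1QA, C1QB or C1QC, 2671 of 3343 cells were left and SLA-DRA was at 170 ± 32.6 CPM. With clusters made with the class II genes it was 135 CPM. The endothelial-like level moved to 396 ± 27.3 CPM in the 809 of 1239 cells left by the same filter.

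Shares of cells were compared at equal depth. With each cell thinned to 1000 UMIs and shallower cells left out, 82.8% ± 4.44 of dendritic-cell-like cells had a UMI of SLA-DRA, 76.5% ± 3.78 of macrophage-like, 69.0% ± 2.68 of B-cell-like, 28.8% ± 2.67 of endothelial-like and 15.2% ± 3.21 of cytotoxic-T-like cells (SD, n = 4). Neutrophil-like cells had a share of 7.09% ± 2.71 and T-cell-like cells one of 5.78% ± 1.76, so no expression is read from the latter at this depth. Without thinning the shares were 95.6%, 71.4%, 97.5%, 62.0%, 54.8%, 13.5% and 28.6% in the same order, with neutrophil-like before T-cell-like cells. Among the classes just listed, median depth ranged from 804.5 UMIs in macrophage-like to 19530 in dendritic-cell-like cells. It was 1757 in neutrophil-like and 7180 in T-cell-like cells, and thinning left out 749 of 1156 macrophage-like cells.

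**Figure D2:**
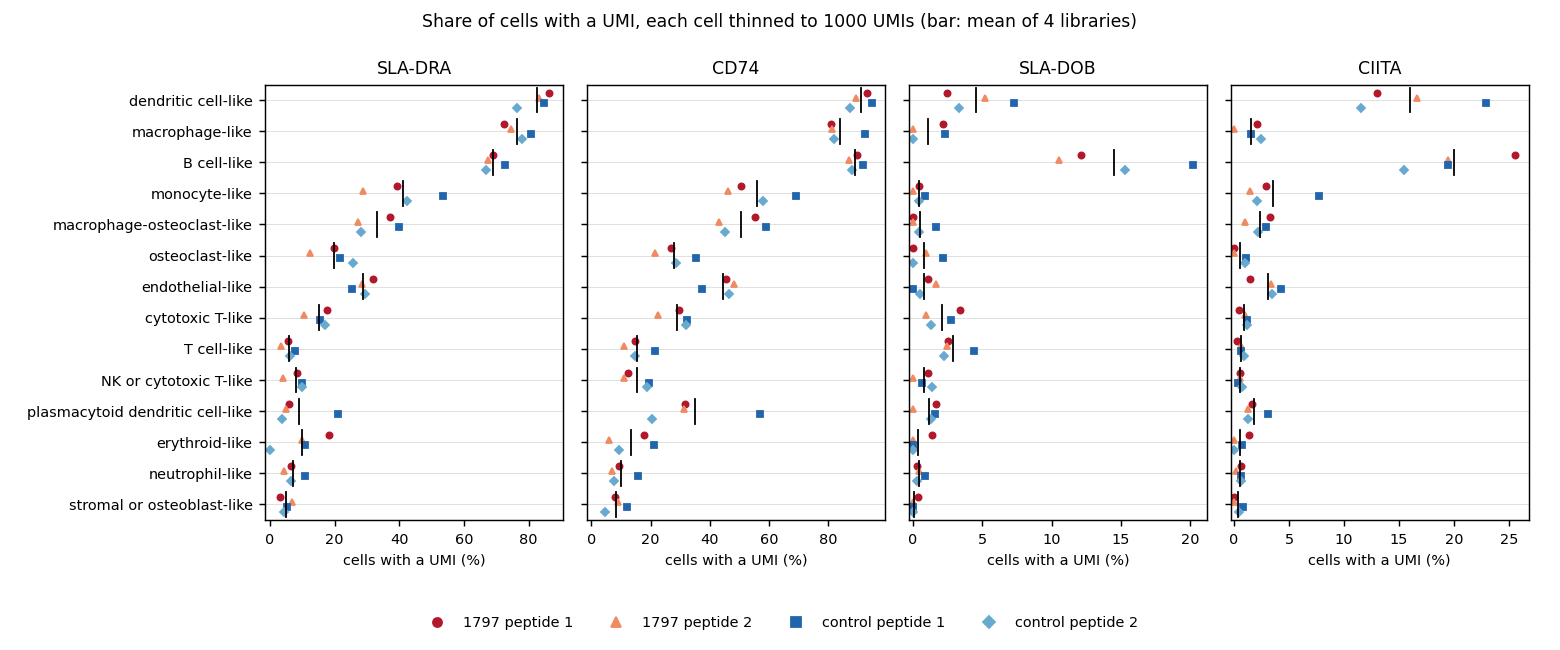
Share of cells with at least 1 UMI of SLA-DRA, CD74, SLA-DOB or CIITA (x axis, percent) in 14 classes, after thinning each cell to 1000 UMIs, with 1 point per library and a bar at the mean. SLA-DRA lies at 7.09% in neutrophil-like and 82.8% in dendritic-cell-like cells, and SLA-DOB at 2.90% in T-cell-like against 0.456% in neutrophil-like cells.

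The DQ genes split B-cell-like cells from the myeloid classes. SLA-DQA1, the DQ alpha chain, had 3601 and 2854 CPM in the 1797 and 3474 and 3602 CPM in the control libraries of B-cell-like cells. It had 5439 ± 950 CPM in dendritic-cell-like and 2570 ± 1148 CPM in macrophage-like cells. SLA-DQB1, the DQ beta chain, had 4659 ± 918 CPM in dendritic-cell-like, 2276 ± 512 CPM in B-cell-like and 2249 ± 867 CPM in macrophage-like cells, with the B-cell-like and macrophage-like levels within their spread. The ratio of SLA-DQA1 to SLA-DRA was 2.66 ± 0.184 in B-cell-like cells, 1.12 ± 0.0417 in dendritic-cell-like cells, 1.16 ± 0.0993 in monocyte-like and 0.84 ± 0.117 in macrophage-like cells, and the 4 B-cell-like values, from 2.47 to 2.91, did not overlap those of these 3 classes. They overlapped those of plasmacytoid-dendritic-cell-like cells, at 2.60 ± 0.543, and of T-cell-like cells, at 2.35 ± 0.229. SLA-DRA, the denominator, was near or below the neutrophil-like level in both of these classes.

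CD74, the invariant chain, followed SLA-DRA through the first 3 classes, at 5300 ± 716 CPM in dendritic-cell-like, 4475 ± 1802 CPM in macrophage-like and 2483 ± 208 CPM in B-cell-like cells. The first 2 did not differ beyond their spread, with 3 of 4 libraries in that order. The ratio of CD74 to SLA-DRA was lowest in dendritic-cell-like cells, at 1.09 ± 0.0670. It was 1.96 ± 0.108 in B-cell-like, 3.28 ± 0.361 in T-cell-like and 5.03 ± 0.923 in plasmacytoid-dendritic-cell-like cells, against 1.39 ± 0.11 in neutrophil-like cells. The plasmacytoid class, likened to the interferon-producing dendritic cells, has TCF4, SPIB and TLR9 among its markers and VPREB1, a pre-B cell gene, among its leading genes. It held 504 ± 312 CPM of CD74 with 112 ± 94.5 CPM of SLA-DRA, near the neutrophil-like 84.8 ± 41.3 CPM. SLA-DRA in T-cell-like cells lay below the neutrophil-like level, so the ratios of both classes rest on denominators not told apart from it.

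Control library 1 stood apart in the plasmacytoid class, with 253 CPM of SLA-DRA against 55.4 to 81.7 CPM in the other libraries and 967 CPM of CD74 against 292 to 405 CPM. It was also the highest library for SLA-DRA in macrophage-like, monocyte-like, T-cell-like and neutrophil-like cells.

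SLA-DMA and SLA-DMB, the peptide exchange factor, were highest in macrophage-like cells. SLA-DMB had 410 and 304 CPM in the 1797 libraries and 348 and 340 CPM in the control libraries of that class, above the dendritic-cell-like level of 145 ± 10.1 CPM in 4 of 4 libraries. SLA-DMA had 287 ± 40.1 CPM in macrophage-like, 222 ± 22.4 CPM in dendritic-cell-like and 176 ± 29.0 CPM in monocyte-like cells. Against DR the order differed: the ratio of summed DM to summed DR UMIs was 0.0474 ± 0.00666 in dendritic-cell-like, 0.0751 ± 0.0135 in B-cell-like, 0.14 ± 0.0461 in macrophage-like, 0.199 ± 0.0522 in monocyte-like and 0.622 ± 0.171 in plasmacytoid-dendritic-cell-like cells. In the last class SLA-DRB1, at 78.9 ± 38.0 CPM, was within its spread of the neutrophil-like 47.2 ± 15.3 CPM, as was SLA-DRA.

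SLA-DOB, the DO beta chain, was highest in B-cell-like cells, followed by dendritic-cell-like and T-cell-like cells, an order that held in 4 of 4 libraries. B-cell-like cells had 129 and 125 CPM in the 1797 libraries and 228 and 153 CPM in the control libraries. Dendritic-cell-like cells had 59.9 and 34.0 against 84.6 and 35.0 CPM. T-cell-like cells had 30.1 and 27.3 against 45.2 and 25.8 CPM, while neutrophil-like cells had 4.51 ± 3.10 CPM and monocyte-like cells 3.87 ± 1.04 CPM.

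SLA-DOB stood further above the neutrophil-like level in T-cell-like cells than SLA-DRA or CD74: its mean there was 7.12 times the neutrophil-like one, against 0.716 times for SLA-DRA and 1.66 times for CD74. After thinning, 2.90% ± 0.987 of T-cell-like cells had a UMI of SLA-DOB, against 0.456% ± 0.281 of neutrophil-like and 14.5% ± 4.27 of B-cell-like cells, and 17.8%, 0.864% and 67.6% unthinned. Without cells holding UMIs of the presenting-cell markers, 7525 of 9957 T-cell-like cells were left and their SLA-DOB level was 32.7 ± 9.05 CPM. All 4 T-cell-like clusters held it, from 23.7 CPM to 43.0 CPM, the most in the cluster of 4119 cells with IL7R, ICOS, CD28 and FOXP3 among its leading genes. That cluster lay above the largest T-cell-like cluster, with BLK and SOX13 among its leading genes, in 3 of 4 libraries.

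SLA-DOA, the DO alpha chain, had another order: 54.2 ± 14.7 CPM in macrophage-like, 29.6 ± 6.50 CPM in dendritic-cell-like and 15.4 ± 1.92 CPM in B-cell-like cells. T-cell-like cells held 0.721 ± 0.236 CPM, near the neutrophil-like 0.65 ± 0.692 CPM. The ratio of summed DO to summed DM UMIs was 2.44 ± 0.541 in T-cell-like, 1.04 ± 0.176 in B-cell-like, 0.227 ± 0.0820 in dendritic-cell-like, 0.102 ± 0.0332 in macrophage-like and 0.0262 ± 0.00616 in monocyte-like cells. Each of these classes lay above the next in all 4 libraries. In T-cell-like cells SLA-DMA (8.19 ± 2.26 CPM) and SLA-DMB (5.60 ± 1.60 CPM) were near the neutrophil-like 6.93 ± 2.77 and 5.76 ± 2.68 CPM. The T-cell-like ratio thus sets SLA-DOB against levels near those of neutrophil-like cells and is not read as a balance of DO and DM.

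**Figure D3:**
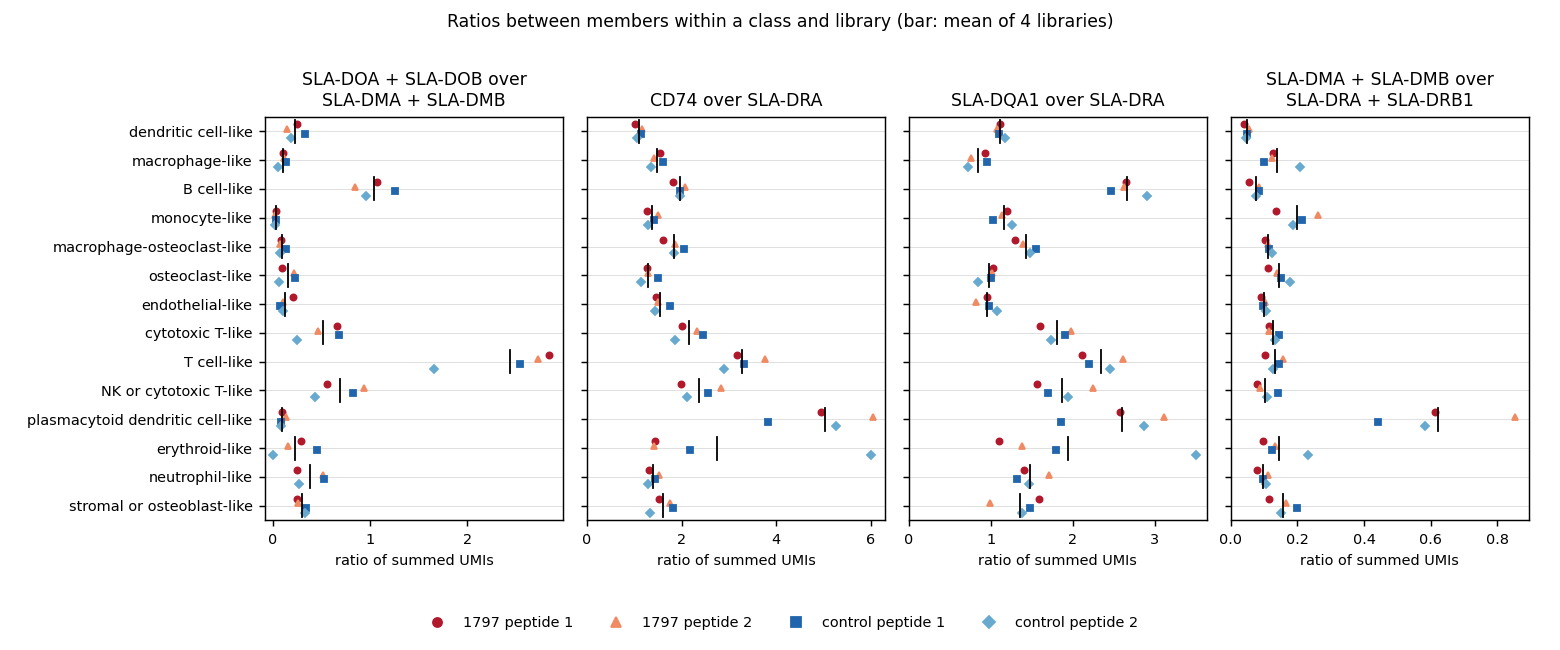
Ratios of summed UMIs between members (x axes) within each class and library, with 1 point per library and a bar at the mean. DO over DM is highest in T-cell-like (2.44) and B-cell-like cells (1.04), CD74 over SLA-DRA in plasmacytoid-dendritic-cell-like cells (5.03), SLA-DQA1 over SLA-DRA in B-cell-like (2.66) and plasmacytoid-dendritic-cell-like cells (2.60), which overlap, and DM over DR in plasmacytoid-dendritic-cell-like cells (0.622). DM in T-cell-like and DR in plasmacytoid-dendritic-cell-like cells, the denominators, are near the neutrophil-like level.

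CIITA, the class II coactivator, was highest in B-cell-like cells at 290 ± 68.3 CPM and dendritic-cell-like cells at 250 ± 106 CPM, whose order held in 2 of 4 libraries. It was at 44.8 ± 33.8 CPM in monocyte-like, 26.6 ± 9.51 CPM in endothelial-like and 5.29 ± 2.11 CPM in neutrophil-like cells. In macrophage-like cells, second for SLA-DRA, CIITA had 15 UMIs over all 4 libraries (9.55 ± 7.04 CPM). Thinned shares were 19.96% ± 4.16 in B-cell-like, 16.0% ± 5.08 in dendritic-cell-like, 3.10% ± 1.20 in endothelial-like, 1.52% ± 1.08 in macrophage-like and 0.526% ± 0.214 in neutrophil-like cells, and unthinned shares were 63.2%, 55.3%, 18.4%, 1.09% and 1.06%.

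Classes too small for a test in every library are given as levels. Plasma-cell-like cells (168 cells, 11 in the smallest library) had 506 ± 242 CPM of SLA-DRA, 167 ± 85.9 CPM of CIITA and 70.4 ± 33.5 CPM of SLA-DOB. Of the 5390 cells in 13 unnamed clusters, 1 cluster of 1548 cells, with a median of 737.5 UMIs and with JCHAIN, CXCL9 and CCL17 among its leading genes, held 2487 CPM of SLA-DRA. Its cells numbered 772 and 222 with peptide 1797 against 345 and 209 with the control peptide. A cluster of 379 cells led by granulocyte progenitor genes was kept unnamed by a choice made after its genes were seen, with 21 and 123 cells against 6 and 229.

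The genes most like SLA-DRA across the 14 class means, by Pearson correlation of log2(CPM + 1) over 11815 genes, were mostly its relatives. SLA-DRB1 (r = 0.996), SLA-DQB1 (0.984), SLA-DQA1 (0.973) and CD74 (0.971) led, and LOC100153139, SLA-DOA, SLA-DMA and SLA-DMB followed with r from 0.923 to 0.945. FGD2 (0.877) and CD72 (0.875), a B cell coreceptor, completed the first 10. CIITA ranked 60 (0.725) and SLA-DOB ranked 1791 (0.374), counting SLA-DRA itself as rank 1. These correlations are a description over classes that share libraries and depth.

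The other genes of the pathway had orders of their own. CTSS and LGMN, endosomal proteases that cut CD74 and antigens, were highest in macrophage-like cells, at 3637 ± 363 and 1841 ± 61.3 CPM, against 365 ± 22.1 and 198 ± 79.1 CPM in dendritic-cell-like cells. IFI30, the lysosomal thiol reductase, had 555 ± 24.9 CPM in macrophage-osteoclast-like and 513 ± 187 CPM in macrophage-like cells. CD86, a ligand of CD28, had 231 ± 43.7 CPM in dendritic-cell-like and 265 ± 57.0 CPM in monocyte-like cells, and CD40, the receptor for T cell help, 289 ± 27.6 CPM in B-cell-like cells. MARCH1, a ubiquitin ligase that sends class II to lysosomes, had 139 ± 25.3 CPM in monocyte-like and 79.9 ± 11 CPM in dendritic-cell-like cells. RFX5, a subunit of the promoter complex, was at 3.55 to 17.7 CPM in the B-cell-like, dendritic-cell-like, monocyte-like, macrophage-like, endothelial-like and T-cell-like means, a much narrower range than that of CIITA.

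The chains of a dimer kept ratios that differed by library. SLA-DRB1 over SLA-DRA was lowest in control library 1 in 11 of 14 classes, for example 0.640 in B-cell-like cells against 0.757, 0.805 and 0.847 in the others, and 0.526 in T-cell-like cells against 0.80 to 0.87. SLA-DQB1 over SLA-DQA1 was lowest in 1797 library 2 in 13 of 14 classes, for example 0.529 in B-cell-like cells against 0.692, 0.703 and 0.739. These ratios were singled out after their values were seen, and alleles that differ in their match to the reference and other causes were not tested.

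The study's design sets the 1797 peptide against the control peptide. No member was called in any of the 15 fits, 14 classes and all cells together, by the quasi-likelihood test of edgeR at an adjusted p of 0.05, and DESeq2 called 0 as well. Of 136 tests of members, 11 had an unadjusted p under 0.05 with edgeR and 10 with DESeq2. Over all genes the edgeR fits had from 71 of 5383 (erythroid-like) to 1095 of 12666 (macrophage-osteoclast-like) under 0.05. Over all genes edgeR called 0% in 13 fits, 0.0217% in NK-like or cytotoxic-T-like cells and 0.0112% in plasmacytoid-dendritic-cell-like cells. The lack of calls is thus not particular to the members. Over the 15 fits edgeR called 3 genes and DESeq2 337, so the number of calls depends on the method. Data were also simulated from the means and library sizes of the summed counts, with changes set only in genes with enough counts. The spread was fixed at the same value for every gene and was not taken from these libraries. In these data, changes of 2-fold were recovered for 16% of genes in dendritic-cell-like and 27% in T-cell-like cells, and 4-fold changes for 90% and 98%. These shares hold for that spread and do not measure what these libraries can detect.

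CIITA had log2 fold changes of opposite sign by class. In dendritic-cell-like cells it had 188 and 154 CPM in the 1797 libraries against 392 and 265 CPM in the control libraries, a log2 fold change of -0.92 ± 0.25 (SE, adjusted p = 0.673, edgeR). In monocyte-like cells it had 27.2 and 17.7 against 93.5 and 40.8 CPM, a log2 fold change of -1.55 ± 0.45 (adjusted p = 0.618, edgeR). In B-cell-like cells it had 385 and 281 against 272 and 223 CPM, a log2 fold change of 0.49 ± 0.21 (adjusted p = 0.695, edgeR). The groups did not overlap in any of these 3 classes, and no adjusted p passed the threshold. The difference between dendritic-cell-like and B-cell-like cells in this log2 fold change was -1.39 ± 0.21 (adjusted p = 0.562), and that between B-cell-like and monocyte-like cells was 1.94 ± 0.32 (adjusted p = 0.65, edgeR with a library block). In macrophage-like cells CIITA had 8.72 and 0 against 13.5 and 16 CPM, too few for its own test. The fit of B-cell-like against macrophage-like cells called 0.0166% of all genes and not CIITA.

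Without control library 2 the monocyte-like CIITA difference was -2.06, with control library 1, the highest, as the lone control. In monocyte-like cells 7 of 18 marker lists had a lower sum in both 1797 libraries than in both control libraries, where 24.5% of single genes did. They were those of T, B, plasma, dendritic, endothelial, stromal or osteoblast and proliferating cells. The neutrophil list alone had a higher sum. The 9 B cell markers, all detected, summed to 121 to 122 CPM in the 1797 and 137 to 164 CPM in the control libraries, and the 13 dendritic cell markers, of which CLEC10A had no UMI, to 248 to 274 against 301 to 373 CPM. The 10 neutrophil markers, all detected, ran the other way, at 6456 and 6178 against 4403 and 4506 CPM. Their part in the result was not tested. In dendritic-cell-like cells the class's own 13 markers, of which CLEC10A had no UMI, were lower too, at 1520 and 1685 against 1979 and 1762 CPM, while the B cell markers overlapped between groups, at 84.8 and 200 against 160 and 255 CPM. Of the 18 lists, 3 were lower there in both 1797 libraries and 1, that of plasma cells, higher. The part of these lists was not tested either.

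The class II chains gave other values than CIITA. In dendritic-cell-like cells SLA-DRA (0.20 ± 0.22), SLA-DRB1 (0.37 ± 0.20), SLA-DMA (0.27 ± 0.17) and CD74 (0.17 ± 0.20) had positive log2 fold changes within 2 standard errors of 0. The median over the 10 members was 0.138 there, -0.108 in B-cell-like and -0.207 in monocyte-like cells, beside medians over all genes of 0.002, -0.023 and -0.022. Without 1797 library 1 the dendritic-cell-like median was -0.141, and without control library 1 the monocyte-like median was 0.067, and 0.066 without 1797 library 2. The B-cell-like median was 0.039 without 1797 library 2 and -0.234 without control library 2.

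**Figure D4:**
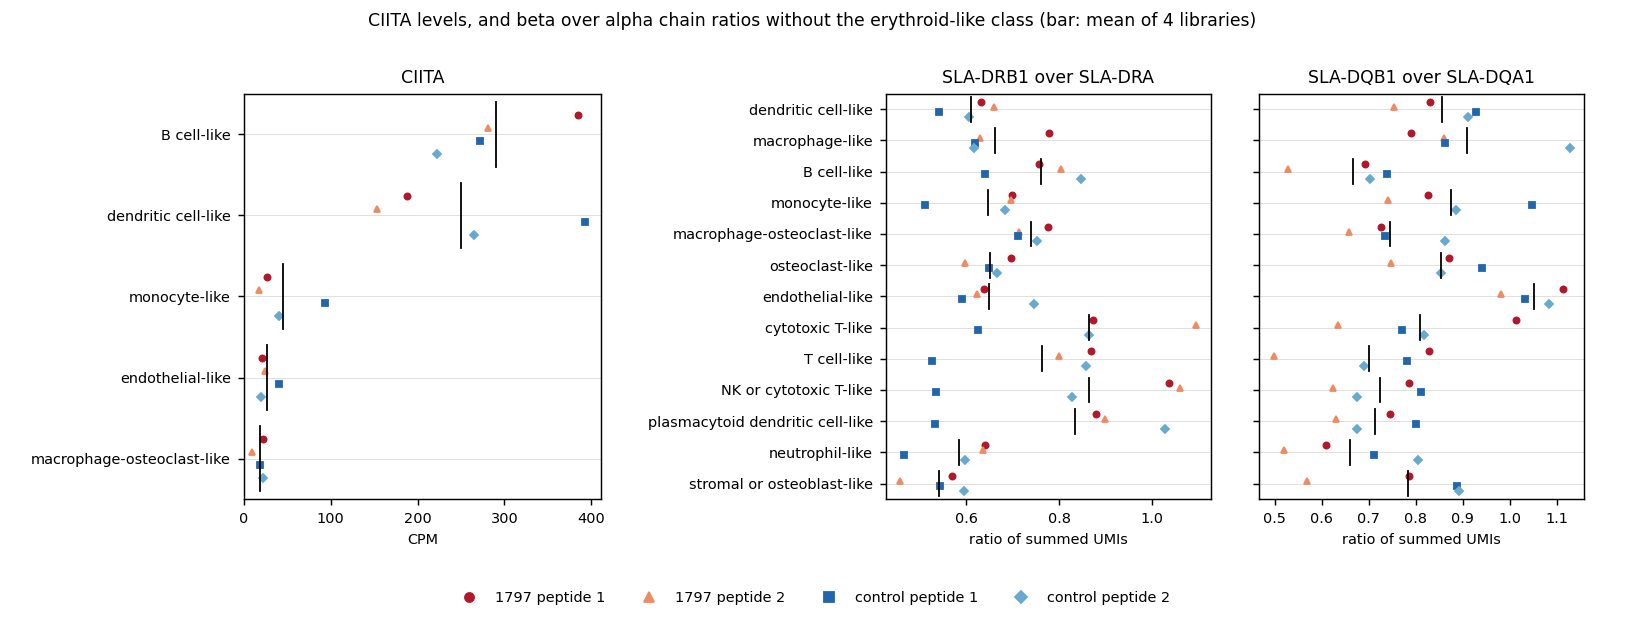
CIITA in CPM per library in 5 classes (left), and the ratios of summed UMIs of SLA-DRB1 over SLA-DRA (middle) and SLA-DQB1 over SLA-DQA1 (right) in 13 classes, with a bar at the mean of the 4 libraries. CIITA lies at 154 to 188 CPM in the 1797 and 265 to 392 CPM in the control libraries of dendritic-cell-like cells, control library 1 has the lowest DR ratio in 11 of all 14 classes and 1797 library 2 the lowest DQ ratio in 13.

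In B-cell-like cells 4 of 10 members had both 1797 libraries below both control libraries, where 24.9% of all genes did, and CIITA alone had them above, where 14.5% did. The lower ones were SLA-DQB1, SLA-DOA, SLA-DOB (-0.53 ± 0.22, adjusted p = 0.695, edgeR) and SLA-DMB, at 53.3 and 68.3 against 84.2 and 86.6 CPM (-0.44 ± 0.17, adjusted p = 0.695, edgeR). In dendritic-cell-like cells CIITA lay below (1 member, all genes 19.9%) and SLA-DRB1 and SLA-DMA above (2 members, 15.8%). In monocyte-like cells CIITA, SLA-DMA and SLA-DMB lay below (3 members, 24.5%).

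T-cell-like cells had lower values of most members in the 1797 libraries. The median log2 fold change of the 10 members was -0.611 (all genes -0.003, and -0.398 for the members without 1797 library 2), 9 were lower, and 6 had both 1797 libraries below both control libraries, where 17.3% of all genes did. SLA-DQA1 had 120 and 94.6 CPM in the 1797 and 182 and 165 CPM in the control libraries (-0.69 ± 0.16, adjusted p = 0.864, edgeR). SLA-DRA (-0.69 ± 0.24), SLA-DMB (-0.72 ± 0.23), SLA-DMA (-0.66 ± 0.23) and CD74 (-0.57 ± 0.22) also had an unadjusted p under 0.05, with adjusted p from 0.991 to 0.993 (edgeR). Of all 13421 genes tested, 653 had an unadjusted p under 0.05 (edgeR). The mean levels of these members, SLA-DQA1 among them, were 0.716 (SLA-DRA) to 1.66 (CD74) times the neutrophil-like ones. A change of class II in T cells themselves is therefore not read from them.

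Of 18 marker lists, 9 had a sum in T-cell-like cells that was lower in both 1797 libraries than in both control libraries, and 0 a higher one. Of single genes, 17.3% were lower in this way. The lists were those of T, NK or cytotoxic T, B, dendritic, plasmacytoid dendritic, macrophage, mast or basophil, stromal or osteoblast and proliferating cells. The class's own 11 T cell markers, all detected, summed to 2787 and 2620 against 2902 and 2858 CPM. The 12 NK or cytotoxic T cell markers, all detected, summed to 180.5 and 185 against 309 and 264 CPM. The 9 B cell markers summed to 42.3 and 43.3 against 60.6 and 51.3 CPM and the 12 macrophage markers to 65.5 and 45.0 against 90.4 and 95.8 CPM, all of them detected. SLA-DRA in neutrophil-like cells was at 77.3 and 48.4 against 144 and 69.5 CPM, and its groups overlapped. The part of any of these in the result was not tested. In the T-cell-like cells without UMIs of the presenting-cell markers SLA-DRA was at 52.0 and 31.3 against 77.6 and 66.7 CPM, so the groups stayed apart there.

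**Figure D5:**
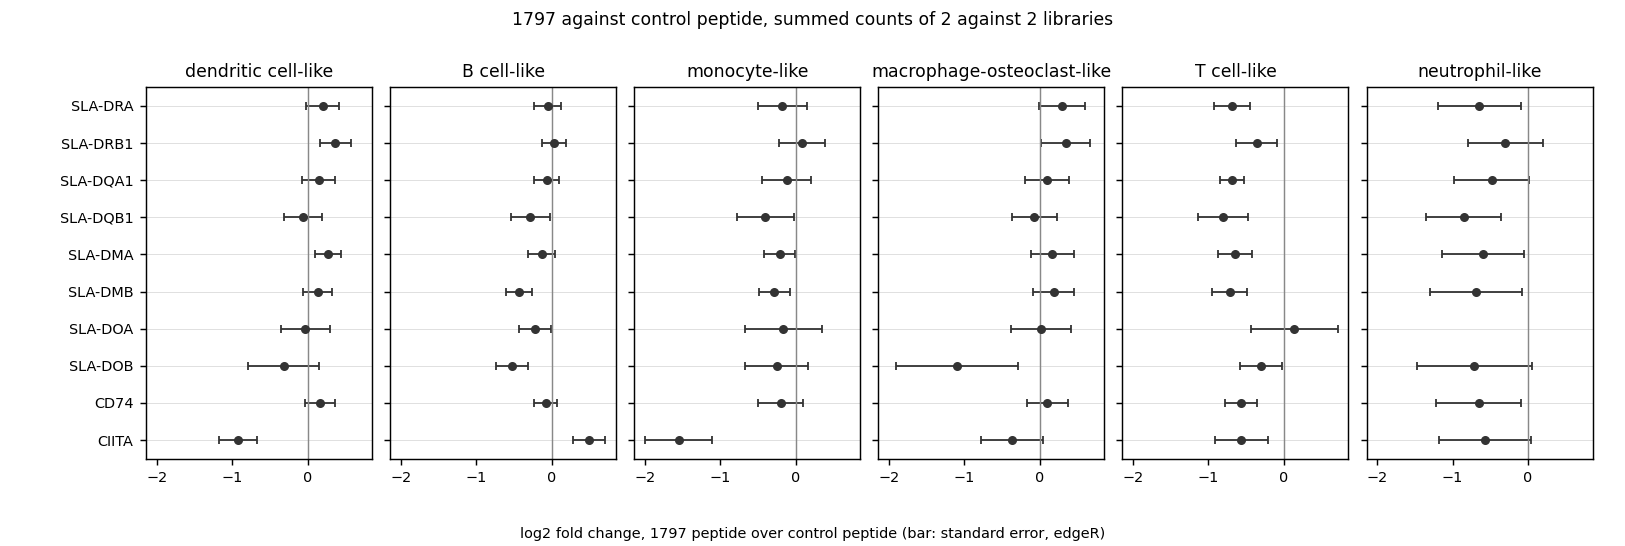
Log2 fold change of each member, 1797 peptide over control peptide (x axis), in 6 classes, with standard errors from edgeR. In T-cell-like cells 9 of 10 members lie below 0, CIITA lies at -0.92 in dendritic-cell-like, -1.55 in monocyte-like and 0.49 in B-cell-like cells, and no member passed the adjusted threshold.

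In the other classes no member was called either. In neutrophil-like cells all 9 members that passed the filter on low counts were lower (median -0.643) and 3 lay fully below (all genes 16.1%), but without control library 1 the median was 0.151. In plasmacytoid-dendritic-cell-like cells the median was -0.700 over 9 members, and 0.319 without control library 1. Without control library 2 instead, the median in that class was -1.274, with control library 1, the highest, as the lone control.

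Members with both 1797 libraries below both control libraries numbered 6 of 9 in NK-like or cytotoxic-T-like cells (all genes 16.8%), 1 of 9 in cytotoxic-T-like (17.8%), 3 of 7 in osteoclast-like (22.4%), 2 of 9 in stromal-like or osteoblast-like (15.6%), 1 of 10 in endothelial-like (21.7%, and 1 above, 13.5%) and 0 of 10 in all cells together (12.2%). In NK-like or cytotoxic-T-like cells 4 of 18 marker lists had a lower sum in both 1797 libraries, and 0 a higher one. The lower ones were those of T, macrophage, mast or basophil, and pericyte or smooth muscle cells. The 12 macrophage markers, of which TREM2 had no UMI, summed to 87.7 and 87 against 157 and 178 CPM. The part of these lists in the result was not tested. SLA-DMB in osteoclast-like cells had the lowest p among these (-0.96 ± 0.31, adjusted p = 1.00, edgeR). Macrophage-like, erythroid-like and macrophage-osteoclast-like cells had 0 members below, of 8, 6 and 10. Of all genes, 643 of 4340, 817 of 5383 and 3167 of 12666 lay below in these classes. Plasmacytoid-dendritic-cell-like cells had 0 of 9 members below, where 1547 of 8942 genes did. In the sum of all cells, fewer cells of a class and less RNA per cell cannot be told apart.

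The other pathway genes are counted over lists of 7 to 14 genes found in the tables. In the 15 edgeR fits of all 4 libraries 0 of them were called. In dendritic-cell-like cells 8 of 14 genes of class II transcription control had a positive and 6 a negative log2 fold change. Of all 10058 genes, 5006 had a negative one. PRDM1, a repressor of CIITA, had 121 and 90.5 CPM in the 1797 against 54.7 and 76.3 CPM in the control libraries (0.72 ± 0.25, adjusted p = 0.742, edgeR). CTSC, a lysosomal protease, had 170 and 168 against 247 and 312 CPM (-0.69 ± 0.19, adjusted p = 0.673, edgeR), MARCH8, a relative of MARCH1, 5.65 and 8.39 against 13 and 15.6 CPM (-1.01 ± 0.36, 0.16 with coarser clusters), and RFXAP 3.01 and 3.09 against 4.15 and 7.16 CPM.

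In B-cell-like cells 5 of 8 costimulation genes had a positive log2 fold change. Of all 12461 genes, 6602 had a negative one. CD80, a ligand of CD28, had 121 and 120 CPM in the 1797 libraries against 69.1 and 72.1 CPM (0.83 ± 0.14, adjusted p = 0.509 with edgeR and 0.00654 with DESeq2). CD82, a tetraspanin, had 139 and 98.7 against 49.0 and 65.3 CPM (1.12 ± 0.24, adjusted p = 0.648 with edgeR and 0.00468 with DESeq2). Without 1797 library 2 the log2 fold change of CD82 was 1.38, with 1797 library 1 alone in its group. ICOSLG, the ligand of ICOS, ran the other way, at 123 and 158 against 211 and 267 CPM (-0.71 ± 0.18, adjusted p = 0.695, edgeR).

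CD80 in monocyte-like cells was at 169 and 195 against 114 and 104 CPM (0.79 ± 0.17, adjusted p = 0.615, edgeR). TNFSF9, the ligand of 4-1BB, had 44.1 and 37.5 against 18.7 and 16.6 CPM (1.25 ± 0.22, adjusted p = 0.551 with edgeR and 0.00622 with DESeq2). POU2F2, an octamer-binding factor, had 88.3 and 114 against 174 and 197 CPM (-0.82 ± 0.18, adjusted p = 0.615, edgeR), and 10.8 and 13.1 against 22.4 and 26.7 CPM in macrophage-osteoclast-like cells, where IL10 had 8.75 and 7.88 against 13.9 and 16.3 CPM. In T-cell-like cells 11 of 12 genes of antigen proteolysis and loading were lower (median -0.245), where 6792 of all 13421 genes were. The macrophage markers were lower in these cells too, and their part was not tested. LAG3, a class II receptor on T cells, had 7.58 and 9.75 against 5.97 and 5.70 CPM (0.58 ± 0.24, adjusted p = 0.993, edgeR).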

How the data were processed

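Droplet 3′ libraries of regenerated pig bone were analysed, 2 per peptide group, grouped by the sample labels. The authors deposited raw UMI counts per gene and barcode, made with Cell Ranger 5.0.0 on Sscrofa11.1 per the submitters' processing notes. Per the file headers the version was 7.0.1. Other control samples of the series were not analysed here.

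Every deposited barcode held at least 500 UMIs. Barcodes with at least 200 genes and under 20% mitochondrial counts were kept, and Scrublet removed 1798 doublets. Leiden clustering (scanpy 1.11.5, 2000 variable genes without the class II genes, 30 components, 15 neighbours, resolution 1.0, no integration) gave 42 clusters, named from marker lists by at least 3 markers. Counts were summed per library and class and tested with edgeR 4.0.16 (quasi-likelihood, TMM, filterByExpr, Benjamini-Hochberg over all genes of a fit), with DESeq2 1.42.0 as alternative. The test was checked on simulated data. An exact permutation test of 2 against 2 cannot pass 0.05. Errors of levels are SDs over 4 libraries.

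Named were all 10 members, up to 4 pathway genes per class whose groups did not overlap with a log2 fold change of at least 0.5, as far as described, and the 10 genes most like SLA-DRA. Levels of further pathway genes were chosen after their values were seen. Members and lists were chosen with earlier results of these data known. Replicate numbers are not read as pairing libraries: the control descriptions carry other numbers than the titles. Clusters with the class II genes, other filters, resolution 0.5, doublets kept and left-out libraries were alternatives. Tests of differences between classes were added after the data were seen.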

Additional observations from a re-analysis of the deposited data

Results flagged for a closer look

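In 5 of 150 differences of members between classes the 1797 libraries were all above the control libraries in one class and all below them in another. Of all genes, 15.8% lay above in dendritic-cell-like and 14.5% in B-cell-like cells. Below lay 19.9% in dendritic-cell-like, 24.5% in monocyte-like and 17.3% in T-cell-like cells. How many of all genes went opposite ways in a pair was not counted, so these 5 are not read as a trait of the members. The differences between classes were then tested with edgeR, with the library as a block, for 15 pairs of 6 classes, and 0 of 150 differences of members passed an adjusted p of 0.05. Over all genes 10 calls were made in 3 of the 15 pairs, all of them with macrophage-like cells. These tests were added after the values were seen.

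CIITA was lower in the 1797 libraries in dendritic-cell-like and higher in B-cell-like cells, and the 2 log2 fold changes differed by -1.39 ± 0.21 (adjusted p = 0.562, edgeR), from -1.55 to -1.26 with each library left out. Between B-cell-like and monocyte-like cells CIITA differed by 1.94 ± 0.32 (adjusted p = 0.65, edgeR), from 1.48 to 2.41. Between B-cell-like and macrophage-like cells it differed by 2.03 ± 0.90 (adjusted p = 1, edgeR), from 1.54 to 9.60. That value rests on 15 UMIs in macrophage-like cells, with 0 in 1797 library 2, so the highest is a fitted value against a library at 0 and no bound. That fit called 2 genes.

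SLA-DMA was higher in the 1797 libraries in dendritic-cell-like cells and lower in monocyte-like and T-cell-like cells. Its log2 fold changes differed by 0.46 ± 0.20 between dendritic-cell-like and monocyte-like cells (adjusted p = 0.623, edgeR), from 0.28 to 0.64 with each library left out. They differed by 0.90 ± 0.22 between dendritic-cell-like and T-cell-like cells (adjusted p = 0.702, edgeR), from 0.83 to 1.00.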

How the results depend on the processing

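With 2 libraries per group 1 library can decide a median. With each library left out, the median log2 fold change of the members lay between -0.316 and 0.198 in all cells, -0.141 and 0.29 in dendritic-cell-like, -0.45 and 0.76 in macrophage-like, -0.627 and 0.067 in monocyte-like, -1.201 and 0.151 in neutrophil-like, -1.274 and 0.319 in plasmacytoid-dendritic-cell-like and -0.226 and 0.211 in stromal-like or osteoblast-like cells. Members called numbered 0 to 1 in monocyte-like and 0 to 4 in plasmacytoid-dendritic-cell-like cells, both without control library 2. Without control library 1 SLA-DRA in neutrophil-like cells was at 0.151. Clustering at resolution 0.5 gave a dendritic-cell-like median of -0.076 and MARCH8 at 0.159. Keeping called doublets gave an osteoclast-like median of -0.855, and no filter on low counts a stromal-like or osteoblast-like one of -0.151. The causes were not tested. The other 146 alternative medians moved by less than the spread, the SD of the library medians within the groups. That spread was 0.825 in erythroid-like, 0.467 in macrophage-osteoclast-like and 0.395 in osteoclast-like cells. A median there can change sign and still count as unmoved. With each library left out, these medians lay between -0.479 and 0.965, -0.258 and 0.395, and -0.525 and 0.003 in the same order.

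Clusters made with the class II genes gave SLA-DRA levels of 134.72 CPM in cytotoxic-T-like and 177.16 CPM in osteoclast-like cells, and cells without presenting-cell markers one of 395.61 CPM in endothelial-like cells. Shares of SLA-DRA depend on depth by construction. Without thinning and at 2000 UMIs they were 95.602% and 90.284% in dendritic-cell-like, 71.36% and 84.237% in macrophage-like, 97.542% and 87.45% in B-cell-like, 28.57% and 10.537% in T-cell-like, 54.836% and 28.025% in cytotoxic-T-like, 61.993% and 47.275% in endothelial-like and 13.478% and 12.583% in neutrophil-like cells.

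Over all 15 fits edgeR called 3 genes, against 337 with DESeq2, 456 without the filter on low counts and 26 with a replicate block. With the replicate block 0 members were called in any fit. Same-numbered libraries correlated in their deviations from the group means by -0.313 (all cells) to 0.434 (neutrophil-like). The labels do not tie the numbers to an animal or day, so no crossed pairing was made. Same-numbered libraries were alike in some contents. In B-cell-like cells erythroid markers summed to 2072 and 138 CPM in 1797 libraries 1 and 2. They summed to 1056 and 162 CPM in control libraries 1 and 2. Neutrophil-like cells made up 17.9% and 40.9% of 1797 libraries 1 and 2, and 15.7% and 34.5% of control libraries 1 and 2. The cause was not tested.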
